A study of Mus musculus with 16 samples.

Results

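Nuclear genes for the subunits of the mitochondrial respiratory chain were followed in mouse macrophages given apoptotic cells to engulf. The genes were chosen by symbol and by their summed count: protein-coding genes whose symbols start with Nduf (complex I), Sdha, Sdhb, Sdhc or Sdhd (complex II), Uqcr (complex III), Cox4, Cox5, Cox6, Cox7 or Cox8 (complex IV) or Atp5 (complex V, the ATP synthase), with 100 or more counts over all 16 libraries. This gave 91 genes of 98 with such symbols and of 55416 genes in the count table, and all 91 were among the 14168 genes tested. They were 44 genes of complex I, 8 of complex II, 8 of complex III, 14 of complex IV and 17 of complex V. The symbols also take in 12 assembly factors, Ndufaf1 to Ndufaf8 and Sdhaf1 to Sdhaf4, which build complexes and are not part of them.

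The summed count chose the genes and is given only as a description. Just inside it were Cox7a1 with 185 counts, Ndufaf2 with 957 and Cox6a2 with 971. Just outside it were Cox4i2 with 7 counts, Cox8c with 3, Ndufa4l2 with 1, and Cox6b2, Cox7b2, Cox8b and a second identifier of Atp5o with 0. Cox4i2 and Ndufa4l2 are known as hypoxia-responsive counterparts of Cox4i1 and Ndufa4, and Cox6b2, Cox7b2, Cox8b and Cox8c as forms of other tissues.

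The macrophages were of the Hoxb8 line, grown from mouse bone marrow progenitors that a conditionally active Hoxb8 keeps dividing until it is withdrawn, so all 4 groups share 1 line. Macrophages alone were compared with macrophages incubated for 45, 90 or 180 min with apoptotic cells of Jurkat, a line of human T cells. There were 4 libraries of total RNA depleted of ribosomal RNA in each group. The study asks how macrophages change their transcription early in efferocytosis, the uptake of apoptotic cells. The labels do not state that libraries of one group are separate cultures. The p-values therefore measure only the spread between these libraries, which may be technical. The controls were macrophages alone with no time given, so time in the assay and contact with apoptotic cells cannot be told apart.

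Complex I takes electrons from NADH and complex II from succinate. Complex III passes them from ubiquinol to cytochrome c, and complex IV from cytochrome c to oxygen. Complexes I, III and IV pump protons, and complex V lets them back to make ATP. Complexes I, III, IV and V each also hold subunits encoded by mitochondrial DNA, so their assembly draws on both genomes. In macrophages the balance between this chain and glycolysis is known to shift with activation, and complex I and complex II are known as sites where reactive oxygen species form.

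Library totals were 18681977 to 27654812 counts for macrophages alone, 24378422 to 41688999 at 45 min, 13595345 to 17421443 at 90 min and 10690809 to 23423640 at 180 min, so depth moved with the groups. With every library thinned to the smallest total, 10 of the genes rose at 45 min against alone and 34 fell from 45 to 90 min, where the full libraries gave 11 and 36. The 11 macrophage markers summed to 11342 to 11582 CPM (counts scaled to a common library total, the usual CPM unit) alone, 12258 to 13254 at 45 min, 11212 to 11623 at 90 min and 10580 to 11954 at 180 min. Every 45 min library thus lay above all others in this sum, as it did for several of the genes below, and the part of this in the results was not tested. Of 15 markers of T cells or Jurkat cells, 7 were at 0 in every library (Cd3e, Cd3g, Cd2, Cd7, Trbc1, Trbc2 and Bcl11b). The list summed to at most 0.899 CPM alone, 1.18 at 45 min, 1.91 at 90 min and 2.24 at 180 min. These are counts of mouse genes, and the treatment of human reads is not stated, so they do not measure Jurkat RNA. In bulk RNA, fewer cells of a type and less RNA per cell cannot be told apart.

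Levels were set by CPM divided by the length of a gene's exons in kilobases. By this measure the highest of the 91 genes were Cox6b1 of complex IV with 141 CPM per kb, the α subunit gene Atp5a1 with 95.7, Cox8a with 94.6 and the catalytic β subunit gene Atp5b with 91.2, as means of the 16 libraries. In complex IV these were followed by Cox6a1 with 82.8, and in complex V by the γ subunit gene Atp5c1 with 33.7. Complex I was led by Ndufa2 with 54.5, Ndufa8 with 43.2 and Ndufc2 with 35.1. Complex II was led by Sdhd with 59.4, Sdha with 50.4 and Sdhb with 28.1, and complex III by Uqcr10 with 45.3, Uqcrb with 42.7 and Uqcrc2 with 35.4.

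The median level per length was 12.7 CPM per kb in complex I, 16.9 in complex II, 26.5 in complex III, 40.7 in complex IV and 21.9 in complex V. Assembly factors had lower medians than the subunits they build, 3.65 CPM per kb for complex I and 4.82 for complex II, against 14.3 for the core subunits of complex I and 39.2 for the 4 subunits of complex II. These are totals of all annotated exons, so a gene with long rarely used exons is set too low by this measure. Ndufb2, whose annotated exons span 5628 bases, had the lowest level of the 91 at 0.54 CPM per kb.

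**Figure D1:**
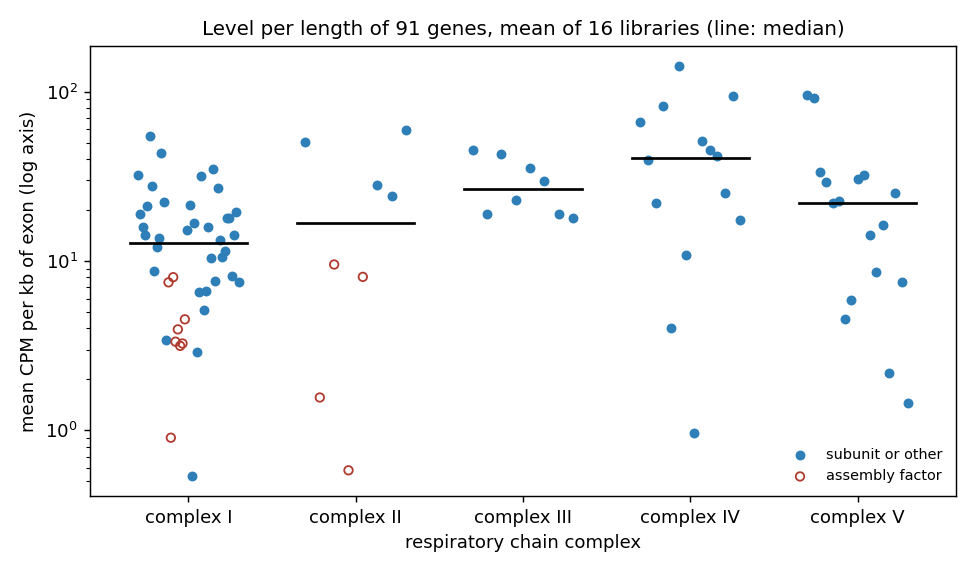
Mean level of each of the 91 genes over 16 libraries, in CPM per kb of exon on a log axis, by complex; filled points are subunits and related genes, open points assembly factors, and lines the median of each complex. Complex IV has the highest median, 40.7 CPM per kb, and Cox6b1 the highest single level, 141 CPM per kb.

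Against macrophages alone, 75 of the 91 genes were higher and 16 lower at 45 min, 35 higher and 56 lower at 90 min, and 29 higher and 62 lower at 180 min, whether or not they passed the test. At 45 min 11 of 91 rose by edgeR's quasi-likelihood test at an adjusted p under 0.05, where 4.69% of all genes tested rose. None of the 91 fell at 45 min, with 0 also at an unadjusted p under 0.05 and 0 by DESeq2, where 6.11% of all genes fell. At 90 min 1 of 91 rose and 9 fell, against 11.1% and 9.97% of all genes, and at 180 min 2 rose and 16 fell, against 15.1% and 16%. The share that fell at 90 and at 180 min was thus close to the background of all genes. The median log2 difference of the 91 genes was 0.11 at 45 min, -0.05 at 90 min and -0.07 at 180 min, where that of all genes tested was 0.00, 0.00 and 0.01.

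Of the steps between successive times, that from 45 to 90 min held most of the calls. There 36 of 91 genes fell and 2 rose, where 13.3% of all genes fell and 14.8% rose, and the median was -0.16 against 0.02 for all genes. Of the 91 genes 71 were lower and 20 higher at 90 than at 45 min, whether or not they passed the test. Between 90 and 180 min 3 fell and none rose, where 6.97% of all genes fell and 4.45% rose, and the 3 that fell were Ndufa2, Ndufs4 and Cox7a1. The 0 genes that rose in that interval stood beside 3 at an unadjusted p under 0.05 and 0 by DESeq2. At 180 min against 45 min 39 fell and 2 rose, where 18% of all genes fell and 18.3% rose. These comparisons share the libraries of 45 min or of macrophages alone, so their counts are not independent of each other. A test for any change over the 3 times called 42 of 91, where it called 44.6% of all genes.

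Abundant genes are called more easily, so the counts were also read above a floor of 10 CPM. Levels above that floor were not matched between the sets. Among protein-coding genes with a mean of 10 CPM or more, 22.2% of 8021 fell between 45 and 90 min, and 36 of the 76 respiratory chain genes at that level did, or 47.4%. At 45 min 7.59% of such genes rose against 14.5% of these 76, and at 180 min against alone 25.6% fell against 19.7% of the 76.

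The size of each change was small. In what follows, values in CPM are given in the order of libraries 1 to 4 of a group, whose numbers are names only. Values in parentheses are the log2 fold change, its standard error (SE) and the adjusted p of edgeR over all genes tested. Apart from Cox7a1, which had 185 counts in all, every log2 difference of the 91 genes in the 6 comparisons lay between -0.51 and 0.62. The 11 genes that rose at 45 min rose by 0.18 to 0.37. Of the 36 genes that fell between 45 and 90 min, 27 passed the test under each of 23 other settings or left-out libraries, of the 39 that fell between 45 and 180 min 29 did, and of the 11 that rose at 45 min 3 did (Ndufa13, Atp5e and Atp5g3). Without library 4 of macrophages alone 7 of 91 rose at 45 min, and without library 2 of 45 min 17 did.

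**Figure D2:**
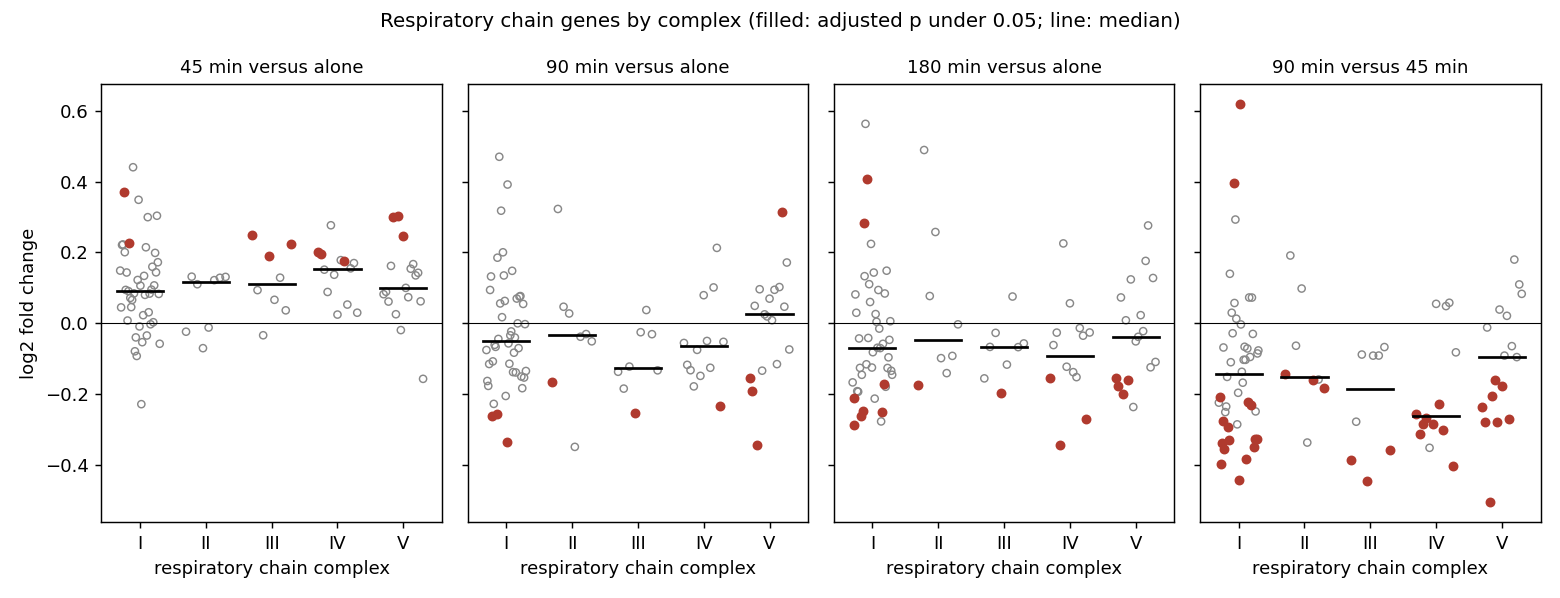
Log2 fold change of each gene by complex (I to V) in 4 comparisons; filled points passed edgeR's test at an adjusted p under 0.05, open points did not, and lines are medians of all genes of a complex, with Cox7a1 left out as a point for its low counts. Filled points lie above 0 at 45 min and almost all lie below 0 from 45 to 90 min, where 36 of 91 genes fell and 2 rose.

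Transcript length moved with these differences. Genes with short exons in total were higher at 45 min over all protein-coding genes: the shortest tertile, with up to 3361 bases, had a median log2 difference of 0.09 at 45 min against alone and -0.10 at 90 against 45 min. Of the 91 genes 75 lay in that tertile, with medians of 0.11 and -0.18. The 4 respiratory chain genes of the longest tertile (Ndufs1, Ndufab1, Sdhaf2 and Atp5l) had medians of 0.08 and 0.11. With a smooth trend on length and GC content taken out of each library, 19 of the 91 genes rose at 45 min. The trend was fitted with an intercept, so this setting also re-centred each library on its mean log difference. Between 45 and 90 min 55 fell, with a median of -0.25 for the 91 and -0.06 for all genes. Without this setting these medians were -0.16 and 0.02. Over all genes tested, 1123 rose at 45 min under this setting, against 664 without it. From 45 to 90 min 3100 of all genes fell, against 1888. The larger counts of the 91 thus came with larger counts over all genes. How much of this came from the re-centring and how much from length and GC content was not tested. None of the 91 then rose between 45 and 90 or 45 and 180 min.

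Promoter sequences were looked at because NRF1, GABPA (an ETS factor) and YY1 are known regulators of respiratory chain genes. RefSeq windows of 300 bases on GRCm38.p6, from 250 bases before to 50 after the first listed start, were found for 77 of the 91 genes and for 9220 protein-coding genes tested. Both strands were searched and matches of different motifs or of both strands of 1 motif may overlap. GCGCNTGCG (NRF1) was found in 32.5% of the 77 and 14.8% of all, CCGGAAG (ETS) in 25.97% and 19.6%, and AAGATGGCG (YY1) in 9.09% and 3.48%. CACGTG (the E-box of MYC) was found in 7.79% and 10.5%, and GGGCGG (SP1) in 48.1% and 64.6%. Of the genes that fell between 45 and 90 min, 10 of 32 with a window held the NRF1 letters, and of the other genes 15 of 45. Such matches describe letters in a window and show neither binding nor control. The 250 bases before the start are printed below for 6 genes, at least 1 of each complex, 5′ to 3′ on the gene's strand, with NRF1, ETS and YY1 matches in capitals. The 6 were picked with the matches known, to show windows with and without them, and are not a sample of the called genes. Among called genes described below, Ndufa9, Uqcr10, Cox8a and Atp5d hold none of the letters searched in those 250 bases and are not printed.

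Complex I had 7 core subunits, 29 supernumerary subunits and 8 assembly factors among the 91 genes. Between 45 and 90 min 14 of the 44 fell and 2 rose, with a median of -0.14, where 13.3% of all genes fell, 14.8% rose and the median was 0.02. The core subunits carry the redox centres and the proton path that bacteria share. Of these 7, Ndufv1, which binds the flavin where NADH is oxidised, fell by 0.33 on the log2 scale between 45 and 90 min (adjusted p = 0.00109). Ndufs7, which carries the iron-sulfur cluster next to ubiquinone, fell by 0.33 (adjusted p = 7.06e-04). Ndufs3 fell by 0.23 (adjusted p = 0.0471), a call that was lost with thinned libraries, with upper-quartile scaling, with protein-coding genes only and without any of libraries 1, 3 and 4 of 45 min and 1 and 4 of 90 min (adjusted p up to 0.178). Ndufs1, the largest subunit, was at 61.2 ± 1.01 CPM (SD, n = 4) alone and 58.9 ± 3.76 at 180 min, and passed no test.

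Ndufa9, a supernumerary subunit that binds NADPH, was the complex I gene with the smallest p over the 3 times. Its CPM was 47.97, 48.6, 53.2 and 50.2 in the 4 libraries alone, 51.7, 48.8, 55.1 and 54.4 at 45 min, 41.8, 38, 45.98 and 41.7 at 90 min and 43.96, 45.5, 41.8 and 37.9 at 180 min. The libraries of 90 and 180 min all lay below those of macrophages alone and of 45 min, which overlapped each other. The log2 difference was 0.07 at 45 min (SE 0.0672, adjusted p = 0.595), -0.26 (SE 0.0705, adjusted p = 0.00495) at 90 min and -0.25 (SE 0.0701, adjusted p = 0.00399) at 180 min. Between 45 and 90 min it was -0.33 (SE 0.0698, adjusted p = 1.99e-04). The call at 180 min was lost without library 4 of 180 min (adjusted p = 0.0533).

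Ndufa11, a membrane subunit at the face that meets complex III in supercomplexes, stood at 20.1, 17.98, 16.8 and 16.7 CPM alone and 21.3, 18.3, 22.1 and 21.9 at 45 min. It then measured 15.3, 16.99, 14.9 and 16.1 at 90 min and 14.8, 16.5, 13.8 and 14.1 at 180 min. Every 180 min library was below every library alone and at 45 min, while 90 min overlapped the controls. The difference was -0.29 (SE 0.101, adjusted p = 0.0235) at 180 min against alone and -0.51 (SE 0.0994, adjusted p = 3.36e-05) against 45 min. The first of these calls was lost with upper-quartile scaling, with thinned libraries, and without any of libraries 3 and 4 of 180 min and 1 and 2 of macrophages alone (adjusted p up to 0.113).

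Ndufa8 (ENSMUSG00000026895), a twin-cysteine subunit on the side of the intermembrane space, had 35.7, 34.3, 38.3 and 39.4 CPM alone, 39.7, 41.2, 45.6 and 46.1 at 45 min, 34.4, 36.5, 34.8 and 35.1 at 90 min and 36.1, 35.6, 32.1 and 30.3 at 180 min. Its 4 libraries of 45 min were above all others. The rise at 45 min was 0.23 (SE 0.0724, adjusted p = 0.0318), a call lost with thinned libraries and without any of libraries 3 and 4 of 45 min and 1 and 2 of macrophages alone (adjusted p up to 0.11). The fall from 45 to 90 min was -0.29 (SE 0.0747, adjusted p = 0.00193). The 250 bases before its start, at chr2:36049339-36049588 on the minus strand (GRCm38.p6), end with a pair of NRF1 matches:
Ndufa8: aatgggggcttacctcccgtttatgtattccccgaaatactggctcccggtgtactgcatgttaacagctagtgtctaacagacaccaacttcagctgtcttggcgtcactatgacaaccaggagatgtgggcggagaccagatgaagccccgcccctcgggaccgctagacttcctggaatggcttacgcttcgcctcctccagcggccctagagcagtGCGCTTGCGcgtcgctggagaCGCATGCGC

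Ndufa3, a small membrane subunit, had 32.1, 29.8, 29.8 and 28.7 CPM alone, 31.98, 33.7, 32.4 and 30.6 at 45 min, 23.1, 26.3, 25.3 and 25.7 at 90 min and 27.4, 25.4, 24.8 and 27.7 at 180 min. Libraries of 90 and 180 min were all below those of the other groups. It fell at 90 min (-0.26, SE 0.0805, adjusted p = 0.0132), a call lost with thinned libraries (adjusted p = 0.149), and was -0.19 (SE 0.0797, adjusted p = 0.0564) at 180 min, which did not pass here but did in 3 of 23 other settings. Ndufab1, the mitochondrial acyl carrier protein that serves both complex I and fatty acid synthesis, went the other way. It had 19.7, 22.6, 21.9 and 21.4 CPM alone, 21.9, 21.2, 24.1 and 21.4 at 45 min, 23.7, 24.7, 23.4 and 25.4 at 90 min and 26.3, 28.9, 23.7 and 25.7 at 180 min, with every 180 min library above every library alone. The rise at 180 min was 0.28 (SE 0.08704, adjusted p = 0.00899), and it was lost without library 2 of 180 min (adjusted p = 0.0532) and with thinned libraries. Its annotated exons span 6883 bases, which puts it in the longest tertile of genes.

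Among the other supernumerary subunits, Ndufa13 (GRIM-19) had the largest rise of the 11 at 45 min, with 26.4, 21.6, 26.5 and 21.9 CPM alone and 33.2, 30.4, 28.2 and 33 at 45 min (0.37, SE 0.0835, adjusted p = 0.00131). Its 45 min libraries were all above the controls, and its call held in each of the 23 other settings. Ndufb11 fell at 90 min from 20.5 ± 1.17 to 16.2 ± 2.33 CPM (-0.34, SE 0.104, adjusted p = 0.01404), lost without library 2 of 90 min (adjusted p = 0.0842), and stood at 19.6 ± 2.97 at 180 min, where it did not pass against alone (adjusted p = 0.599). Ndufa2 fell late, from 33.2 ± 3.52 CPM at 90 min to 26.6 ± 2.14 at 180 min (-0.32, SE 0.0863, adjusted p = 0.00598). Ndufb2 was measured at only 2.43 ± 0.483 CPM at 45 min and 3.76 ± 0.736 at 90 min, and its rise between them (0.62, SE 0.2402, adjusted p = 0.04501) was lost in 15 of 23 other settings (adjusted p up to 0.166), among them without any of libraries 1, 3 and 4 of 45 min, 1, 3 and 4 of 90 min, 4 of 180 min and each library of macrophages alone. Ndufs4 fell between 90 and 180 min (-0.26, SE 0.0839, adjusted p = 0.0346), a call lost in 17 of 23 other settings, with adjusted p up to 0.184. It was kept among the left-out libraries only without library 1 of 180 min, 4 of 90 min or 1 of macrophages alone.

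Of the 12 assembly factors, only Ndufaf4 was called in any of the 6 comparisons. Between 45 and 90 min 1 rose and 0 fell, where 14.8% of all genes rose and 13.3% fell. With 12 genes these counts are too few to set against the background. The median of the 12 was 0.02 between 45 and 90 min where that of the 79 other genes was -0.18, and this contrast was not tested. Ndufaf4, a partner of Ndufaf3 in building the arm that binds ubiquinone, had 11.5, 12.1, 11.3 and 11.3 CPM alone, 13.8, 10.1, 8.41 and 11.3 at 45 min, 18.04, 15.1, 10.8 and 13.8 at 90 min and 14.2, 15.3, 16.3 and 15.5 at 180 min. All 180 min libraries were above all libraries alone and at 45 min. The rise at 180 min was 0.41 (SE 0.126, adjusted p = 0.0094) and held in each of the 23 other settings. The difference from 45 to 90 min was 0.40 (SE 0.127, adjusted p = 0.0136), a call lost without any of libraries 2 and 3 of 45 min and 1 of 90 min, with thinned libraries and with the length trend taken out (adjusted p up to 0.491). Apart from Sdhaf2 with 24719 counts, the factors were low in counts, from 957 for Ndufaf2 to 5270 for Ndufaf3, which limits the precision of their values. Ndufaf4 lay within this range too.

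Complex II is the chain's link to the citrate cycle and has no subunit from mitochondrial DNA. Of its 8 genes 3 fell between 45 and 90 min, where 13.3% of all genes fell. Sdha (ENSMUSG00000021577), its flavoprotein, had 218, 222, 223 and 221 CPM alone, 211, 217, 219 and 223 at 45 min, 183, 206, 203 and 195 at 90 min and 199, 205, 190.2 and 189.6 at 180 min. Libraries of 90 and 180 min were all below those of the other groups, and 45 min overlapped the controls. It fell at 90 min (-0.17, SE 0.0454, adjusted p = 0.00447) and at 180 min (-0.18, SE 0.0453, adjusted p = 0.00161), and was -0.02 (SE 0.0445, adjusted p = 0.822) at 45 min. Sdha was the only gene of complex II called against macrophages alone, although Sdhd at 45 min passed in 2 of 23 other settings and Sdhb at 180 min in 1. Its upstream window, at chr13:74350241-74350490 on the minus strand (GRCm38.p6), holds 3 NRF1 matches, and that of Sdhd, at chr9:50603850-50604099 on the minus strand, holds 1 NRF1 and 1 ETS match:
Sdha: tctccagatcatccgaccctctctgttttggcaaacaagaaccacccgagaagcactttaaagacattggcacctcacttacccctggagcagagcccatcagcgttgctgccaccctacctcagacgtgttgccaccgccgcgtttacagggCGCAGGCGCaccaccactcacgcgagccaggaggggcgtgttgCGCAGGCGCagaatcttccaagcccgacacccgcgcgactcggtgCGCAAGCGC
Sdhd: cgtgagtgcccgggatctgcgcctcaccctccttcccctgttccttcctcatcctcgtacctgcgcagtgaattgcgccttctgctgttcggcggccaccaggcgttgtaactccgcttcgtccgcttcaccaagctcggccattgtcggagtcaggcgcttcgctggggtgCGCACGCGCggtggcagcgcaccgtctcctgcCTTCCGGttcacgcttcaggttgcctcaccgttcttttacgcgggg

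Sdhb, the iron-sulfur subunit, had 64.2, 60.2, 68.2 and 60.6 CPM alone, 68.6, 63.4, 71.9 and 71.7 at 45 min, 63.01, 62.4, 65 and 56.6 at 90 min and 58.4, 56.4, 57.6 and 57.3 at 180 min. The 180 min libraries were all below every library alone and at 45 min. It fell between 45 and 180 min (-0.26, SE 0.0609, adjusted p = 4.01e-04). Its fall from 45 to 90 min (-0.16, SE 0.06101, adjusted p = 0.0417) was lost with upper-quartile scaling, with protein-coding genes only and without any of libraries 3 and 4 of 45 min and 4 of 90 min, with adjusted p up to 0.119. Sdhc and Sdhd are the membrane anchors, which hold the haem and help bind ubiquinone. Sdhc had 74.9, 82.8, 81.3 and 74.7 CPM alone, 82.5, 85.4, 87.1 and 88.1 at 45 min, 86.1, 67.2, 73.1 and 81.3 at 90 min and 84.4, 61.3, 75.2 and 72.5 at 180 min, a spread that made the groups overlap. Its fall between 45 and 180 min (-0.22, SE 0.0659, adjusted p = 0.00593) was lost without library 2 of 180 min (adjusted p = 0.0548). From 45 to 90 min Sdhc was -0.16 (SE 0.0661, adjusted p = 0.0639), which did not pass here but did in 15 of 23 other settings. Sdhd had 71.4, 69.2, 75.97 and 71.5 CPM alone, 76.6, 71.5, 83.8 and 83.7 at 45 min, 75.3, 65.9, 67.1 and 70.1 at 90 min and 79.3, 68.7, 67.8 and 71.9 at 180 min, again with overlap. It fell between 45 and 90 min (-0.18, SE 0.0611, adjusted p = 0.0196), a call lost with thinned libraries, with upper-quartile scaling and without library 4 of 45 min (adjusted p up to 0.061).

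Complex III had 8 genes, all lower at 90 than at 45 min, and 3 of them called, where 13.3% of all genes fell. At 45 min against alone 3 rose, where 4.69% of all genes did. Uqcrc1 (ENSMUSG00000025651), a core protein facing the matrix, had 107, 98.7, 97.6 and 92.6 CPM alone, 118, 113, 111 and 111 at 45 min, 97.99, 80.9, 78.4 and 75.2 at 90 min and 88.5, 88.8, 83.7 and 85.1 at 180 min. Libraries of 45 min were above all others and those of 180 min below all controls, while library 1 of 90 min reached into the controls. It rose at 45 min (0.19, SE 0.0571, adjusted p = 0.0195), a call lost when library 4 of the controls was left out (adjusted p = 0.0661) and with the length trend taken out. It fell at 90 min (-0.26, SE 0.0594, adjusted p = 8.90e-04) and at 180 min (-0.20, SE 0.05898, adjusted p = 0.00695), and between 45 and 90 min (-0.45, SE 0.0588, adjusted p = 2.01e-08). The window before its start, at chr9:108936398-108936647 on the plus strand (GRCm38.p6), holds none of the letters searched:
Uqcrc1: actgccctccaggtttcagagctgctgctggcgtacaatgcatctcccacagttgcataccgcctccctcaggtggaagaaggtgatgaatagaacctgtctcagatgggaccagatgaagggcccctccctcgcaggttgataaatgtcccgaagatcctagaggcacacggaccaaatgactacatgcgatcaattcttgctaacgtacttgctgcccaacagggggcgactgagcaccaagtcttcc

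Its partner core protein Uqcrc2 had 88.3, 94.9, 84.05 and 97.95 CPM alone, 90.01, 94.9, 104 and 93.5 at 45 min, 83.7, 90.3, 99.8 and 84.8 at 90 min and 89.01, 87.1, 75.03 and 86.2 at 180 min. Its 180 min libraries were all below those of 45 min, while other groups overlapped. It was called only between 45 and 180 min (-0.18, SE 0.0603, adjusted p = 0.0128), and that call was lost with upper-quartile scaling and without library 3 of either time (adjusted p up to 0.1003). Its difference from 45 to 90 min (-0.09, SE 0.0603, adjusted p = 0.271) passed in 2 of 23 other settings, and that at 180 min against alone in 1. Uqcr10 and Uqcrq are small subunits without redox centres. Uqcr10 had 26.7, 26.4, 27 and 25.6 CPM alone, 34.4, 28.05, 34.01 and 29.5 at 45 min, 22.2, 26.5, 25.04 and 22.4 at 90 min and 24.3, 25.4, 21.7 and 23.97 at 180 min. All 45 min libraries were above all other libraries. The gene rose at 45 min (0.25, SE 0.0825, adjusted p = 0.0389) and fell from 45 to 90 min (-0.39, SE 0.0857, adjusted p = 3.70e-04).

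Uqcrq had 33.1, 34.5, 32.2 and 30.1 CPM alone, 37.7, 38.6, 38.9 and 36.8 at 45 min, 27.97, 31.2, 29.6 and 29.7 at 90 min and 30.3, 35.3, 27.02 and 33.1 at 180 min. Its 45 min libraries were above all others as well. Uqcrq rose at 45 min (0.22, SE 0.0756, adjusted p = 0.0424) and fell from 45 to 90 min (-0.36, SE 0.0784, adjusted p = 3.14e-04). Both calls at 45 min were near the threshold. Left out singly, libraries 1 and 3 of 45 min and 1, 2 and 4 of macrophages alone each lost the call of Uqcr10. Thinned libraries lost it too (adjusted p up to 0.124). Libraries 1, 2 and 3 of 45 min and 1, 3 and 4 of macrophages alone each did so for Uqcrq (adjusted p up to 0.121). Over the 23 other settings the log2 difference ran from 0.22 to 0.32 for Uqcr10 and from 0.21 to 0.27 for Uqcrq. The Rieske iron-sulfur protein gene Uqcrfs1 was at 38.9 ± 1.36 CPM alone, 42.5 ± 3.76 at 45 min, 39.96 ± 1.74 at 90 min and 41.2 ± 3.73 at 180 min (SD, n = 4), and passed no test.

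Complex IV showed the lowest median between 45 and 90 min, -0.26, and 8 of its 14 genes fell, where 13.3% of all genes fell. Cox8a, a small membrane subunit, had 58.7, 64.4, 61.9 and 61.4 CPM alone, 69.5, 70.2, 67.4 and 69.97 at 45 min, 57.8, 53.5, 47.2 and 51.1 at 90 min and 60.2, 45.8, 47.1 and 50.9 at 180 min. The 45 min libraries were above all others, and those of 90 min all below the controls, while library 1 of 180 min reached into them. It was 0.17 (SE 0.06504, adjusted p = 0.0845) at 45 min, which did not pass here but did in 4 of 23 other settings, and fell at 90 min (-0.23, SE 0.0681, adjusted p = 0.00899) and at 180 min (-0.27, SE 0.0678, adjusted p = 0.00113). The call at 90 min was lost without library 3 of 90 min (adjusted p = 0.0578). It also fell between 45 and 90 min (-0.40, SE 0.0673, adjusted p = 3.80e-06).

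Cox4i1, the common form of the largest nuclear subunit, had 106, 101, 106 and 95.5 CPM alone, 117, 109.9, 115 and 128 at 45 min, 106, 97.99, 96.5 and 93.3 at 90 min and 95.8, 92.8, 91.2 and 87.8 at 180 min. All 45 min libraries were above all others, and 180 min overlapped the controls by 1 library. It rose at 45 min (0.20, SE 0.05304, adjusted p = 0.00719), fell from 45 to 90 min (-0.26, SE 0.0542, adjusted p = 1.95e-04) and fell at 180 min against alone (-0.16, SE 0.0547, adjusted p = 0.0232). The rise was lost without library 4 of 45 min, with thinned libraries and with the length trend taken out (adjusted p up to 0.0823). The call at 180 min was lost with upper-quartile scaling and without any of libraries 4 of 180 min and 1 and 3 of macrophages alone (adjusted p up to 0.12).

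Cox6a1 (ENSMUSG00000041697), the form of non-muscle tissue, had 66.9, 60.98, 66.6 and 54.4 CPM alone, 72.7, 63.5, 63.1 and 65.9 at 45 min, 46.95, 64.5, 54.7 and 53.8 at 90 min and 53.9, 39.8, 52.4 and 49.3 at 180 min. The 180 min libraries were all below those alone and at 45 min, which overlapped each other. It fell at 180 min (-0.34, SE 0.0766, adjusted p = 2.76e-04) and between 45 and 180 min (-0.43, SE 0.0759, adjusted p = 5.16e-06), and was 0.09 (SE 0.0735, adjusted p = 0.533) at 45 min. At 90 min against alone it was -0.18 (SE 0.0765, adjusted p = 0.0894), which did not pass here but did in 6 of 23 other settings. Its upstream window, at chr5:115348959-115349208 on the minus strand (GRCm38.p6), holds 3 NRF1 matches, of which a pair overlap, and 1 ETS match close to the start:
Cox6a1: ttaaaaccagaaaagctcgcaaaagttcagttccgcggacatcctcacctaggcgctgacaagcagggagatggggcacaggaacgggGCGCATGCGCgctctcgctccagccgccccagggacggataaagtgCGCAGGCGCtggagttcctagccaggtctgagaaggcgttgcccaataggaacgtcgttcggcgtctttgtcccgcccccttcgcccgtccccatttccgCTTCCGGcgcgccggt

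The muscle forms were far lower. Cox6a2 had 1.98, 2.74, 2.001 and 3.38 CPM alone, 3.01, 3.097, 3.83 and 2.28 at 45 min, 2.48, 2.09, 2.76 and 2.21 at 90 min and 2.73, 3.12, 3.53 and 2.36 at 180 min, and passed no test. Cox7a1 had 12, 25, 28 and 4 counts alone, 3, 13, 25 and 22 at 45 min, 2, 11, 22 and 9 at 90 min and 2, 3, 4 and 0 at 180 min. Counts ran from 0 to 28 over the libraries and the groups overlapped. It was called lower at 180 min (-2.34, SE 0.785, adjusted p = 0.01697), a call lost without any of library 4 of 180 min and libraries 2 and 3 of macrophages alone (adjusted p up to 0.0935). It was also called between 90 and 180 min (-2.41, SE 0.804, adjusted p = 0.0375), lost without any of libraries 1, 3 and 4 of 180 min, 2 and 3 of 90 min and 2 and 3 of macrophages alone (adjusted p up to 0.257). The call against 45 min (-1.96, SE 0.792, adjusted p = 0.0459) was lost with upper-quartile scaling and without any of libraries 1, 3 and 4 of 180 min, 2, 3 and 4 of 45 min and 1, 2 and 3 of macrophages alone (adjusted p up to 0.198).

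Cox7a2, its common counterpart, had 47.7, 46.7, 50.2 and 48.8 CPM alone, 58.8, 51.9, 56.9 and 51.5 at 45 min, 47.3, 50.6, 46.7 and 42.3 at 90 min and 45.9, 47.9, 39.4 and 43.6 at 180 min. The 45 min libraries were above all others, at 0.18 (SE 0.0669, adjusted p = 0.0767) against alone, which did not pass here but did in 10 of 23 other settings, and it fell from 45 to 90 min (-0.23, SE 0.0688, adjusted p = 0.00883). Cox7a2l, which ties complex III to complex IV in supercomplexes, had 64.99, 69.4, 69.1 and 67.4 CPM alone, 74.9, 74.1, 76.3 and 80.6 at 45 min, 69.95, 63.1, 58.99 and 56.4 at 90 min and 60.7, 62.5, 57.4 and 63.3 at 180 min. Its 45 min libraries were again above all others. It rose at 45 min (0.18, SE 0.0592, adjusted p = 0.0417) and fell from 45 to 90 min (-0.30, SE 0.06096, adjusted p = 9.54e-05), and the rise was lost with thinned libraries and without any of library 4 of 45 min and libraries 1 and 4 of macrophages alone (adjusted p up to 0.12).

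Ndufa4, once counted in complex I and now placed in complex IV, had 22.9, 25.2, 25.5 and 23.9 CPM alone, 26.8, 24.6, 24.2 and 23.9 at 45 min, 22.9, 24.3, 24.6 and 22.2 at 90 min and 23.6, 26.4, 19.8 and 26.4 at 180 min. All groups overlapped, and the difference from 45 to 90 min was -0.08 (SE 0.0891, adjusted p = 0.537). It passed no test, but with the length and GC trend taken out it was -0.38 (adjusted p = 0.00102) from 45 to 90 min and -0.33 (adjusted p = 0.00255) from 45 to 180 min, both called. Cox6b1, the most abundant of the 91 genes per length, fell from 112 ± 6.33 CPM (SD, n = 4) at 45 min to 91.9 ± 7.16 at 90 min (-0.29, SE 0.0575, adjusted p = 9.28e-05). Cox6c, Cox7b and Cox7c were 0.05, 0.05 and 0.06 higher at 90 than at 45 min on the log2 scale and passed no test.

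**Figure D3:**
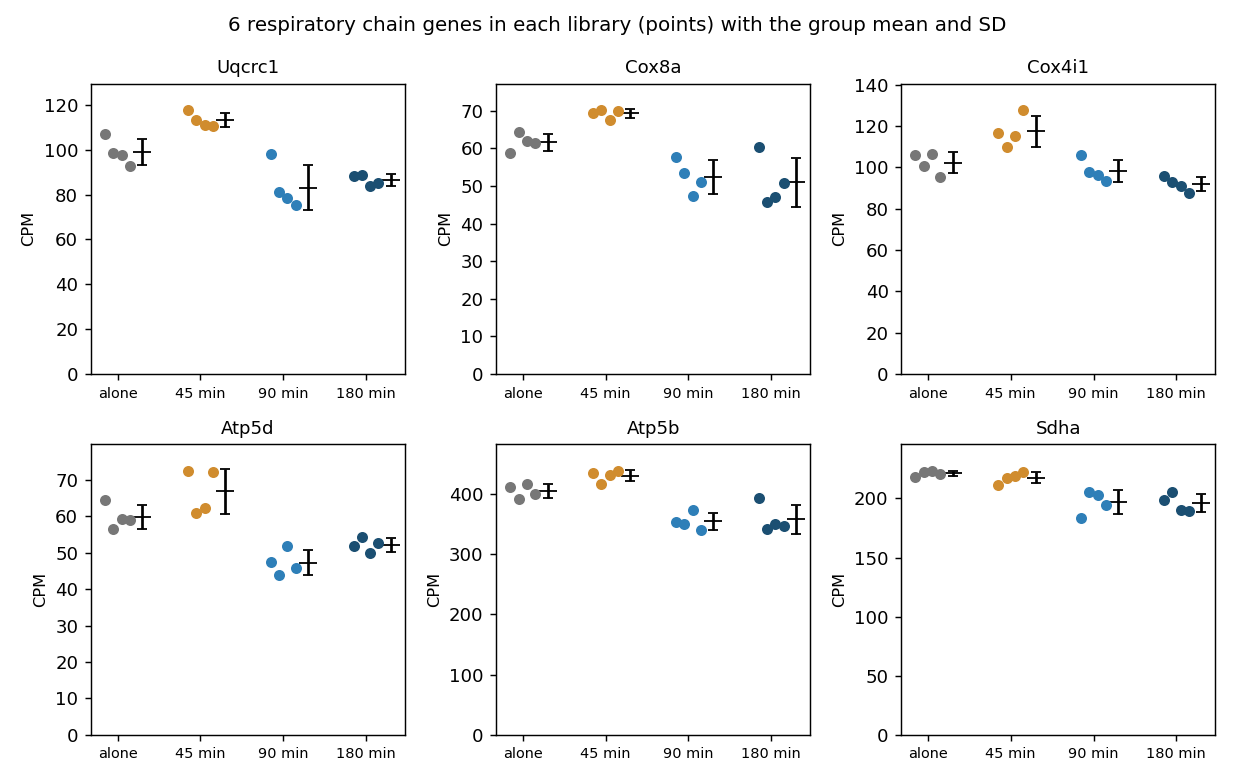
CPM of 6 genes of complexes II to V in each library (points), with the mean and SD (n = 4) of each group beside them; the axes start at 0. Uqcrc1, Cox8a and Cox4i1 are highest in the 45 min libraries, and all 6 are lower at 90 than at 45 min.

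Complex V had 17 genes, of which 8 fell between 45 and 90 min, where 13.3% of all genes fell, with a median of -0.10. The F1 head makes the ATP. Atp5d, its δ subunit, had 64.6, 56.5, 59.3 and 58.9 CPM alone, 72.5, 60.9, 62.2 and 72 at 45 min, 47.3, 43.9, 51.8 and 45.8 at 90 min and 51.9, 54.2, 49.8 and 52.7 at 180 min. Libraries of 90 and 180 min were all below those of the other groups. It had the largest fall of the 91 genes from 45 to 90 min (-0.51, SE 0.0668, adjusted p = 2.07e-08) and also fell against alone at 90 min (-0.34, SE 0.0676, adjusted p = 7.84e-05) and at 180 min (-0.20, SE 0.0667, adjusted p = 0.0158). The call at 180 min was lost with upper-quartile scaling and without library 3 of 180 min or 1 of macrophages alone (adjusted p up to 0.0766).

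Atp5b (ENSMUSG00000025393), the catalytic β subunit, had 412, 390.2, 416 and 399 CPM alone, 435, 416, 431 and 438 at 45 min, 353, 350.2, 373 and 339 at 90 min and 392, 341, 349 and 347 at 180 min. Libraries of 90 min were all below those alone, and library 1 of 180 min stood apart from the other 3 of its group and reached into the controls. It was 0.09 (SE 0.0432, adjusted p = 0.205) at 45 min, and fell at 90 min (-0.19, SE 0.0437, adjusted p = 6.97e-04) and at 180 min (-0.18, SE 0.0437, adjusted p = 9.05e-04). Without library 1 of 180 min it was still called at that time. The window before its start, at chr10:128083057-128083306 on the plus strand (GRCm38.p6), holds 2 SP1 matches and none of the NRF1, ETS and YY1 letters:
Atp5b: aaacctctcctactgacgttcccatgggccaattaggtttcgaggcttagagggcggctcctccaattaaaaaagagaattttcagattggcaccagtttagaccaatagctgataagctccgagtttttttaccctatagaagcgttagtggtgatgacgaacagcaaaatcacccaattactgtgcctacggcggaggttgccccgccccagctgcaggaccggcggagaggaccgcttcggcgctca

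Atp5a1, the α subunit, had 300.1, 310.4, 318 and 317 CPM alone, 324, 315, 340.4 and 338 at 45 min, 283, 289.6, 289.9 and 257 at 90 min and 294, 275, 272 and 278 at 180 min. Libraries of 90 and 180 min were all below the controls. It fell at 90 min (-0.15, SE 0.0445, adjusted p = 0.00832), a call lost without library 4 of 90 min (adjusted p = 0.0701), and at 180 min (-0.15, SE 0.0444, adjusted p = 0.00477). The ε subunit gene Atp5e rose at 45 min from 35.7 ± 2.75 to 44.03 ± 3.897 CPM (0.30, SE 0.0736, adjusted p = 0.00333), with no overlap between the groups. The γ subunit gene Atp5c1, the rotor of the head, passed no test and was at 62.2 ± 2.38 CPM alone, 64.9 ± 0.967 at 45 min, 64.2 ± 4.84 at 90 min and 65.5 ± 2.73 at 180 min (SD, n = 4).

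Subunit c, which forms the rotating ring in the membrane, comes from 3 genes with the same mature protein. Atp5g3, the most abundant of them, had 59.5, 59.97, 69.7 and 63.1 CPM alone, 79.4, 68.5, 70.95 and 80.2 at 45 min, 65.1, 73.4, 63.2 and 62.98 at 90 min and 67.1, 55.5, 58.97 and 61.6 at 180 min. It rose at 45 min (0.25, SE 0.06404, adjusted p = 0.00603), with 1 library of each group overlapping. Its fall from 45 to 90 min (-0.18, SE 0.0654, adjusted p = 0.0357) was lost with upper-quartile scaling, with protein-coding genes only and without any of libraries 1 and 4 of 45 min and 3 and 4 of 90 min (adjusted p up to 0.103). Atp5g1 had 20.1, 19.7, 18.8 and 24.2 CPM alone, 25.5, 24.1, 26.01 and 26.3 at 45 min, 22.4, 17.5, 23.5 and 20.95 at 90 min and 22.4, 20.6, 23.6 and 23.05 at 180 min. This gene rose at 45 min (0.30, SE 0.0904, adjusted p = 0.0193), lost without library 2 or 3 of macrophages alone (adjusted p up to 0.0629). It fell from 45 to 90 min (-0.28, SE 0.0932, adjusted p = 0.0194), lost without library 2 of 90 min (adjusted p = 0.0949). Atp5g2 had 10.5, 9.79, 8.65 and 12.2 CPM alone, 10.4, 10.4, 9.69 and 9.95 at 45 min, 10.5, 12.9, 8.91 and 9.11 at 90 min and 10.8, 8.73, 7.73 and 7.79 at 180 min. It passed no test, with -0.02 (SE 0.1304, adjusted p = 0.959) at 45 min, but its difference at 180 min against alone (-0.24, SE 0.137, adjusted p = 0.197) passed in 2 of 23 other settings.

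The other parts of complex V gave fewer calls from 45 to 90 min, where 13.3% of all genes fell. There 1 of 4 peripheral stalk genes and 1 of 4 further membrane subunits fell, too few to set against that share. Of the 4 genes of the peripheral stalk, which holds the head still, Atp5f1 fell between 45 and 90 min (-0.16, SE 0.0585, adjusted p = 0.0337), a call lost with upper-quartile scaling, with protein-coding genes only and without library 1 of 90 min (adjusted p up to 0.0814). Atp5f1 was also lower at 180 min against 45 min (log2 -0.18, adjusted p = 0.0093) and against alone (log2 -0.16, adjusted p = 0.0313). The first call was lost in 2 of 23 other settings and the second in 8. Of the 4 further membrane subunits, Atp5j2 fell between 45 and 90 min (-0.27, SE 0.0828, adjusted p = 0.0102). Atp5mpl fell from 45 to 180 min (log2 -0.27, adjusted p = 0.00927), lost without library 1 of 45 min (adjusted p = 0.0519). Atp5l, whose annotated exons span 6443 bases, was the single gene of the 91 called higher at 90 min against alone (0.32, SE 0.116, adjusted p = 0.04399), and 10 of 23 other settings lost that call (adjusted p up to 0.2099), among them without any of libraries 1 and 4 of 90 min, 1, 2 and 4 of macrophages alone, 1 of 45 min and 2 and 3 of 180 min. Atpif1, the inhibitor of the ATP synthase, falls outside the symbols used, and was at 23.2 ± 2.46 CPM alone and 21.1 ± 1.96 at 90 min, with no call (-0.13, SE 0.0981, adjusted p = 0.367).

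The subunits encoded by mitochondrial DNA were looked at beside the nuclear ones, with no test of the difference between the sets. Of 13 such genes 7 passed the expression filter. The other 6 (mt-Nd3, mt-Nd4l, mt-Co2, mt-Co3, mt-Atp6 and mt-Atp8) had 0 to 36 counts over all 16 libraries, although mt-Co1 had 701464. How reads from mitochondrial DNA were counted is not given in the sources used here, so these levels do not show which transcripts the cells made. At 45 min 6 of the 7 fell by edgeR and 1 by DESeq2, with a median of -0.31. Of all genes tested 6.11% fell by edgeR at 45 min, with a median of 0.0042. At 90 and at 180 min all 7 rose, with medians of 0.61 and 1.01. Of all genes tested 11.1% rose at 90 min and 15.1% at 180 min, with medians of 0.0033 and 0.0082. mt-Co1, the catalytic subunit of complex IV, had 1794, 1633, 1431 and 1765 CPM alone, 1291, 1386, 1299 and 1366 at 45 min, 2311, 2403, 2179 and 2535 at 90 min and 2445, 3681, 3127 and 3122 at 180 min. Libraries of 45 min were all below those alone, and those of 90 and 180 min all above. It fell at 45 min (-0.31, SE 0.0584, adjusted p = 1.09e-04) and rose at 90 min (0.51, SE 0.0585, adjusted p = 4.14e-10) and at 180 min (0.90, SE 0.0588, adjusted p = 8.85e-20).

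mt-Cytb of complex III had 124, 102, 92.6 and 114 CPM alone, 91.5, 93.9, 86 and 95.2 at 45 min, 152, 189.8, 163 and 191 at 90 min and 193, 283, 237 and 239.6 at 180 min, and rose at 180 min (1.14, SE 0.0709, adjusted p = 1.24e-20). Of the complex I subunits from mitochondrial DNA, mt-Nd1 rose at 180 min (1.02, SE 0.0665, adjusted p = 9.49e-20) and so did mt-Nd2 (1.01, SE 0.0686, adjusted p = 5.97e-19).

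As a share of all counts, the 91 nuclear genes took 0.383% ± 0.0036 (SD, n = 4) in macrophages alone, 0.40995% ± 0.0102 at 45 min, 0.360% ± 0.0072 at 90 min and 0.363% ± 0.0138 at 180 min. Single libraries ran from 0.379% to 0.387% alone, 0.396% to 0.418% at 45 min, 0.3504% to 0.368% at 90 min and 0.348% to 0.380% at 180 min. The 45 min libraries were thus above all others, and 90 min below all controls, while 1 library of 180 min reached the controls. The 13 mitochondrially encoded genes took 0.221% ± 0.0239 alone, 0.179% ± 0.0067 at 45 min, 0.319% ± 0.0224 at 90 min and 0.428% ± 0.064 at 180 min. Both shares are of the same totals, and no test of their opposite order was run.

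**Figure D4:**
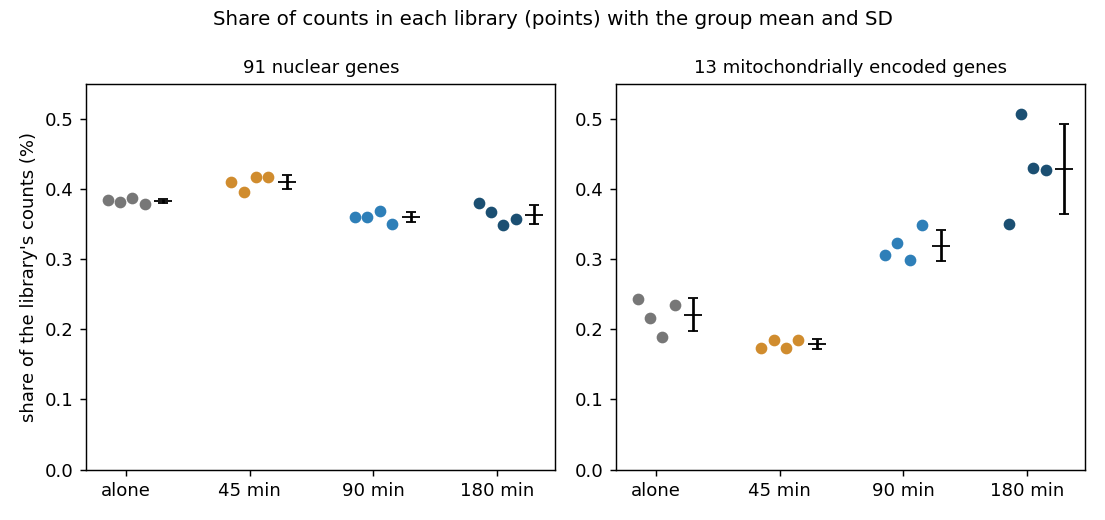
Share of each library's counts, in percent, taken by the 91 nuclear genes and by the 13 mitochondrially encoded genes; points are libraries, bars the mean and SD (n = 4), and both axes start at 0. The nuclear share is highest at 45 min, 0.40995%, while the mitochondrial share is lowest there, 0.179%, and highest at 180 min, 0.428%.

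Genes that work beside the chain were counted from lists made for this comparison. Between 45 and 90 min 14.8% of all genes tested rose and 13.3% fell, and the counts of each list for that interval are to be read against these shares. Of 38 tested assembly factors with other symbols, 5 rose and 1 fell between 45 and 90 min, with a median of 0.03. The count that rose is near the background and is no result about the list. Cox17, the copper chaperone of complex IV, rose at 45 min (0.33, SE 0.1004, adjusted p = 0.0232), at 90 min (0.76, SE 0.103, adjusted p = 3.72e-08) and at 180 min (0.51, SE 0.103, adjusted p = 7.29e-05). Tmem186 and Ttc19 rose from 45 to 90 min by 0.50 and 0.51 on the log2 scale, and Coa5, another complex IV factor, fell at 180 min against alone (-0.15, SE 0.0457, adjusted p = 0.00695).

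Of 22 genes of electron carriers and coenzyme Q synthesis, 3 fell between 45 and 90 min (Sqor, Coq10a and Cyc1) and 0 rose by edgeR, with 0 also at an unadjusted p under 0.05 and 0 by DESeq2. The 3 of 22 that fell are near the 13.3% of all genes and are no result about the list. Cycs, cytochrome c, fell at 180 min against alone (-0.28, SE 0.0807, adjusted p = 0.00546), and so did Coq5 (-0.40, SE 0.0847, adjusted p = 1.12e-04) and Sqor (-0.26, SE 0.0781, adjusted p = 0.00738). Coq8a, a kinase-like protein of coenzyme Q synthesis, rose at 180 min (0.92, SE 0.157, adjusted p = 2.99e-06). Of 19 citrate cycle genes, 7 fell between 45 and 90 min, where 13.3% of all genes fell, with a median of -0.10. Cs, citrate synthase, fell (-0.17, SE 0.0498, adjusted p = 0.00608), and Mdh2 and Ogdh also fell between those times.

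Of 27 inner membrane carriers and import genes, 10 fell and 1 rose between 45 and 90 min, where 13.3% of all genes fell and 14.8% rose. Slc25a5, an exchanger of ADP for ATP, rose at 45 min (0.18, SE 0.0502, adjusted p = 0.0116) and fell from 45 to 90 min (-0.34, SE 0.0513, adjusted p = 5.81e-07). Timm22 and the pore gene Vdac1 fell in that interval (log2 -0.50 and -0.19), and Tomm20, an import receptor, rose at 180 min (0.40, SE 0.0646, adjusted p = 1.22e-06). Of 7 uncoupling and hypoxia genes 2 fell, too few to set against the background, Ucp2 (-0.25, SE 0.0444, adjusted p = 1.15e-05) and Higd2a (-0.40, SE 0.117, adjusted p = 0.00765), and Pdk1, which shuts off pyruvate dehydrogenase, fell at 180 min against alone (-0.38, SE 0.0943, adjusted p = 0.00119).

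Of 16 tested regulators of mitochondrial genes, 3 rose and 1 fell between 45 and 90 min, where 14.8% of all genes rose and 13.3% fell, so the counts are no result about the list. Myc rose at 45 min (0.61, SE 0.09997, adjusted p = 9.15e-06), at 90 min (1.28, SE 0.101, adjusted p = 1.00e-15) and at 180 min (0.85, SE 0.103, adjusted p = 6.24e-10). Hif1a, the oxygen-regulated factor, rose at 90 min (0.26, SE 0.05004, adjusted p = 5.61e-05), and Pprc1, a coactivator of the PGC-1 family, at 180 min (0.41, SE 0.0533, adjusted p = 3.61e-09). Esrra, a nuclear receptor for respiratory genes, rose at 45 min (0.19, SE 0.0637, adjusted p = 0.0441) and fell from 45 to 90 min (-0.23, SE 0.0655, adjusted p = 0.00466).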

How the data were processed

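RNA sequencing libraries of 16 macrophage samples were used as 1 table of raw counts per Ensembl gene, deposited by the authors. The submitters' processing notes name STAR 2.7.9a, SAMtools, HTSeq and the build mm39. For the strand setting, for reads with several matches and for human reads from Jurkat cells, the choices made are not stated in these sources. The kit was directional and RNA was depleted of ribosomal RNA, per the labels' protocols. Table columns name the group but no replicate number, so library numbers 1 to 4 follow the order of columns.

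Symbols, gene classes, exon lengths and GC content came from GENCODE M21. Counts of 14168 genes passed filterByExpr (minimum count 10, minimum total 15) and were scaled by TMM. edgeR 4.0.16 in R 4.3.3 fitted all 4 groups, and its quasi-likelihood test gave 6 pairwise comparisons and 1 joint test of the 3 times, with Benjamini-Hochberg adjustment over all genes and calls at an adjusted p under 0.05. The biological coefficient of variation was 7.81%. A chi-square test of counts within groups gave 3.98 to 10.2 per degree of freedom, so no libraries agreed within sampling noise. CPM of single genes used TMM-scaled totals, and the sums of cell type markers used the library totals without that scaling.

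Members and lists were chosen with earlier results of these data known. Full values went to the 4 genes per complex with the smallest p of the joint test, to set isoforms and c subunit genes, and up to 4 genes of each other list by the same p. Further genes were named from the called ones after their values were seen. Alternatives were DESeq2 1.42.0, upper-quartile scaling, no filter, protein-coding genes only, libraries thinned to the smallest total, only the groups compared, a trend on length and GC content (mgcv 1.9.3), and each library left out. The trend was taken out with its intercept, which also changed the scaling of each library from that of TMM. Single values of 2 genes are not reported here.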

Additional observations from a re-analysis of the deposited data

Results flagged for a closer look

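Among 136 groups of 4 libraries looked at, 2 held a library far from the other 3 by Dixon's 95% critical value, where chance gives about 1 in 20. For Atp5b, library 1 of 180 min had 392 CPM, above the other 3 of its group. For complex V, library 3 of macrophages alone had the highest share of counts, 0.128% of all counts.

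Most of the 27 genes given in full were picked for a small p of the joint test in these same libraries. That choice favours genes that differ between times, so the count below is no result about the respiratory chain genes as a set. Of all 91 genes, 39 were called in none of the 6 pairwise comparisons. For 24 of the 27 genes given in full, the differences from macrophages alone differed between 2 of the times by edgeR's adjusted p. As these comparisons share the controls, the test is that of one time against the other, and the value is its log2 difference. Between 45 and 90 min it was -0.33 for Ndufa9, -0.36 for Ndufa3, -0.18 for Sdhd, -0.45 for Uqcrc1, -0.36 for Uqcrq, -0.51 for Atp5d, -0.28 for Atp5b and -0.28 for Atp5g1. Between 45 and 180 min it was -0.51 for Ndufa11, -0.37 for Ndufa8, -0.15 for Sdha, -0.26 for Sdhb and -0.22 for Sdhc. In complexes III and IV it was -0.41 for Uqcr10, -0.18 for Uqcrc2, -0.44 for Cox8a, -0.36 for Cox4i1, -0.43 for Cox6a1, -0.33 for Cox7a2l and -0.32 for Cox7a2 between those times. It was -0.24 for Atp5a1 and -0.30 for Atp5g3, and 0.24 for Ndufab1. The call of Ndufab1 between those times was lost in 7 of 23 other settings (adjusted p up to 0.169). That of Sdha was lost with upper-quartile scaling (adjusted p = 0.0555). Between 90 and 180 min it was -2.41 for Cox7a1, from 185 counts in all.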

How the results depend on the processing

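No paired analysis was possible because the table's columns carry no replicate number. Over all named genes and alternatives, 3555 values kept direction and side of the threshold, 68 passed it newly, 94 no longer passed and 0 reversed. Of the counts of calls, 246 stayed within 1.5 times and 52 moved.

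Removing the trend on length and GC content also re-centred each library, as the fit held an intercept. With that trend removed, 19 genes rose at 45 min, 0 rose and 22 fell at 90 min and 31 fell at 180 min, all against alone. From 45 to 90 min 0 then rose and 55 fell, and from 45 to 180 min 0 rose. Over all genes tested, 1123 then rose at 45 min, 2142 fell at 90 min and 3046 fell at 180 min against alone. Without the trend removed these were 664, 1413 and 2265. From 45 to 90 min 3100 of all genes fell under this setting, against 1888. This setting moved the share of higher calls among all genes from 43.4% to 69.2% at 45 min, from 52.7% to 39.3% at 90 min and from 48.6% to 37.1% at 180 min against alone. From 45 to 90 min it moved from 52.6% to 31.6%, and from 45 to 180 min from 50.4% to 33.0%. With only the groups compared, 18 rose at 45 min, 1 rose from 45 to 90 min and 1 fell from 90 to 180 min. With no filter 0 rose at 90 min, 1 from 45 to 90 min and 1 from 45 to 180 min. With thinned libraries 0 rose from 45 to 90 min and 1 from 90 to 180 min. With upper-quartile scaling 10 fell at 180 min. The part of the re-centring in the changes with the trend removed was not tested, nor was the cause of the other changes.

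Leaving out single libraries gave 7 to 17 genes higher at 45 min, 0 to 2 higher and 8 to 13 lower at 90 min, and 1 to 4 higher and 11 to 18 lower at 180 min. From 45 to 90 min it gave 0 to 2 higher and 32 to 38 lower, from 90 to 180 min 0 to 1 higher and 1 to 3 lower, and from 45 to 180 min 1 to 2 higher and 34 to 44 lower. As a share of nuclear protein-coding counts, the 91 genes took 0.411% alone, 0.436% at 45 min, 0.397% at 90 min and 0.405% at 180 min. By this share single libraries ran from 0.408% to 0.414% alone and from 0.391% to 0.419% at 180 min. Library 1 of 180 min was above all controls and library 2 lay among them. Genes of few counts, such as Cox7a1, are limited by depth.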
